A study of Mus musculus with 3 samples.

Results

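The 6 genes described here are a small panel that tendon and ligament biology uses to mark its cells: the transcription factors Scx and Mkx, the related membrane proteins Tnmd and Cnmd, and the secreted matrix proteins Tnc and Postn. They were chosen by name, with earlier results of these data known, and all 6 were found once among the 32285 genes of the deposited tables. The data are single-cell RNA counts from the cartilage that caps the mandibular condyle of mice, taken at embryonic day 16.5 (E16.5), the day of birth (P0) and 13 weeks of age (13w). All mice were wild type (WT) on the C57BL6 background, and the labels give no treatment. Condyles of 7 to 20 mice were pooled for each age, digested with collagenase A and dispase 2, sorted for live cells by Calcein and DAPI, and made into 1 droplet library per age. A stage is therefore 1 library with no replicate, the sort used no lineage marker, and no difference between stages below can be separated from a difference between pools.

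Scleraxis (Scx) is a basic helix-loop-helix factor of tendon and ligament progenitors, and cells that carry it together with Sox9, the master factor of cartilage, are known from the sites where tendons attach to bone. Mohawk (Mkx) is a homeobox factor of maturing tendon. Tenomodulin (Tnmd) and chondromodulin (Cnmd) are type II membrane proteins that share the BRICHOS and cysteine-rich domains, the first being known as a late tendon marker and the second as a cartilage protein that keeps vessels out. Tenascin C (Tnc) and periostin (Postn) are matricellular proteins of fibrous and mechanically loaded matrix, and periostin is a product of the periosteum and the periodontal ligament. The condylar cartilage is covered by a fibrous layer, so cells with fibrous and cells with cartilage programs meet within a short distance.

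A cell entered the comparisons with 500 or more genes and no more than 10% mitochondrial UMIs, which left 4562 of 5458 barcodes at E16.5, 3999 of 4853 at P0 and 8028 of 8899 at 13w. The UMIs (unique molecular identifiers) count molecules. The median kept cell held 17401.5 UMIs at E16.5, 17954 at P0 and 11010 in the 13w library. Levels are given as CPM, the usual scaled ratio of a gene's UMIs to all UMIs summed over a group of cells, with 95% Poisson intervals that cover counting error only. Col9a1, a collagen chain of hyaline cartilage, split the cells at 3 UMIs per 10000. Above this limit, here called Col9a1-high, lay 1014 cells at E16.5 (22.2%), 1746 at P0 (43.7%) and 1621 in the 13w library (20.2%). The split is a range and not a cell type, and 239, 171 and 453 cells lay between 2 and 4 UMIs per 10000. Col9a1-high cells were deeper, with medians of 40311.5, 36409.5 and 23612 UMIs against 14937, 11771 and 9547 in the rest. They therefore gave 38.2%, 66.9% and 36.5% of all UMIs, and a level over all cells moves with this share as well as with the level inside each group. The label names condylar cartilage cells. Col2a1, the main cartilage collagen, stood at 10618, 19050 and 42076 CPM in the Col9a1-high cells of the 3 stages, against 145, 290 and 3189 CPM in the rest, so most barcodes of each library lay outside the range of high cartilage collagen. Markers of other lineages (blood, erythroid, endothelial, mural, muscle, glial or epithelial) were carried by 321, 148 and 471 cells. Between libraries, 14 kept barcodes were shared by E16.5 and P0, 11 by E16.5 and 13w, and 8 by P0 and 13w.

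Of the 6 genes, RefSeq's promoter table (build GRCm38.p6) held Tnmd, Cnmd, Tnc and Postn. The 250 bases before the start of Tnmd (chrX:133850758-133851007, plus strand) and of Cnmd (chr14:79662184-79662433, minus strand) are printed because these related genes lay on opposite sides of the Col9a1 split. Capitals mark the E-box CANNTG, the kind of site that basic helix-loop-helix factors bind, and the Sox core ACAAAG or its other strand CTTTGT.
Tnmd: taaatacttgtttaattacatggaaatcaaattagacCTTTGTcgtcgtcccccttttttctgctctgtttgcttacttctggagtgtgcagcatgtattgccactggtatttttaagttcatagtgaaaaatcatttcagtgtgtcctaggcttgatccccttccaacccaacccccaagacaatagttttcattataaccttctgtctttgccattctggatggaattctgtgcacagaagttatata
Cnmd: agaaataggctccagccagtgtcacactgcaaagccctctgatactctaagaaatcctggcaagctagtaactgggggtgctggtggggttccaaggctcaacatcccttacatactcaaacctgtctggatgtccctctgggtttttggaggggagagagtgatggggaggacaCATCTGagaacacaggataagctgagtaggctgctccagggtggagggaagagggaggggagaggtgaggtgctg
The Tnmd window held 0 E-boxes and 1 Sox core, whose first base lies 213 bases before the start. The Cnmd window held 1 E-box, first base 75 bases before the start, and 0 Sox cores. Tnc has 2 overlapping windows, with 3 and 2 E-boxes, and Postn has 2 windows with 0 of either, and none of these 4 windows held a Sox core. Among 32851 promoter windows of this length, 66.2% held at least 1 CANNTG, with a median of 1 match, and 16.5% held the Sox core. Such a match is a description of the letters and not a binding site.

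The level of Scx over all kept cells in CPM was 17.2 (95% interval 16.4 to 18.1) for E16.5, 24.0 (23.0 to 25.0) for P0 and 85.9 (84.2 to 87.7) for 13w. The 13w library was thus the high one, 3.58-fold above P0 and 4.98-fold above E16.5, while P0 and E16.5 differed by 1.39-fold. The share of cells with a Scx UMI followed the same order, 16.5%, 29.6% and 44.8%. After each cell was thinned to 3000 UMIs, with 170, 124 and 321 shallower cells left out, it was 6.22%, 8.44% and 21.9%. In cells with blood markers, which should lack Scx, the thinned share was 0.709% at E16.5, from a median of 10183 UMIs per cell before thinning, and 2.28% at 13w, from a median of 8190.5. P0 had 19 such cells and is not given. These background shares lay under those of all cells in the same libraries.

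Postn, which is named for the periosteum, had its stages in the same order as Scx. It stood at 441 CPM at E16.5, 962 at P0 and 3137 in the 13w library. The P0 library was 2.18-fold above E16.5 and the 13w library 3.26-fold above P0, and a UMI was found in 83.3%, 94.0% and 92.9% of cells. With cells weighed equally the log2 ratio of P0 over E16.5, 1.12, became 0.81, which is under the 2-fold limit used below. Thinned shares were 58.8%, 76.9% and 82.0%, against 7.09% at E16.5 and 43.3% at 13w in blood-marked cells (14.4% and 62.4% at full depth). In blood-marked cells Postn stood at 26.4 CPM at E16.5 and at 604 at 13w, so cells that should lack the gene held Postn UMIs in the adult library, at a level under that of all cells.

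Tnc, a matricellular protein of developing and loaded tendon, was flatter. Its level was 240 CPM at E16.5, 345 at P0 and 333 in the 13w library, and no pair of stages differed 2-fold. The P0 and 13w libraries were nearly level, with a log2 ratio of -0.05 on library totals and 0.11 when scaled with TMM factors, so no direction is given for that pair.

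Mkx was counted sparsely, with 858, 470 and 534 UMIs in the 3 libraries. Its level in CPM was 8.53 (7.97 to 9.12) for E16.5, 5.0 (4.56 to 5.47) for P0 and 4.72 (4.33 to 5.14) for 13w. E16.5 was the high library, and the intervals of P0 and 13w overlapped.

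Tnmd was rarer still, with 846 UMIs at E16.5, 62 at P0 and 67 in the 13w library. This gave 8.41 CPM (7.86 to 9.0), 0.660 (0.506 to 0.845) and 0.592 (0.459 to 0.752). E16.5 was 12.8-fold above P0 (9.85 to 16.8) and 14.2-fold above 13w, and the later libraries overlapped. A Tnmd UMI was held by 2.24%, 0.675% and 0.262% of cells, and by 0 of 153 and 0 of 396 blood-marked cells at E16.5 and 13w, which allows shares of up to 1.96% and 0.758%.

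Cnmd had its high library at birth, with 121 CPM at E16.5, 255 at P0 and 92.6 in the 13w library. P0 was 2.11-fold above E16.5 and 2.76-fold above 13w. This order was also that of Col9a1, at 567, 1323 and 479 CPM, and of the share of Col9a1-high cells.

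A gene was called where the ratio of 2 groups was at least 2, its exact interval left out 1 and the higher group had at least 1 CPM. For P0 against E16.5, 2 of the 6 genes were called higher (Cnmd and Postn) and 1 lower (Tnmd), against 6.23% of 13426 measured genes called higher and 13.7% called lower. For 13w against P0, 2 of 5 measured were higher (Scx and Postn) and 1 lower (Cnmd), against 12.1% and 11.7% of genes. For 13w against E16.5, 2 of 6 were higher (Scx and Postn) and 1 lower (Tnmd), against 12.2% and 19.8%. With so few members these counts describe the panel and carry no test. Scaling with TMM factors or with median-of-ratios factors moved the log2 ratios by 0.18 and 0.17 in the first of these comparisons, 0.16 and 0.18 in the second and 0.32 and 0.31 in the third, all upward, and changed none of these calls.

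**Figure D1:**
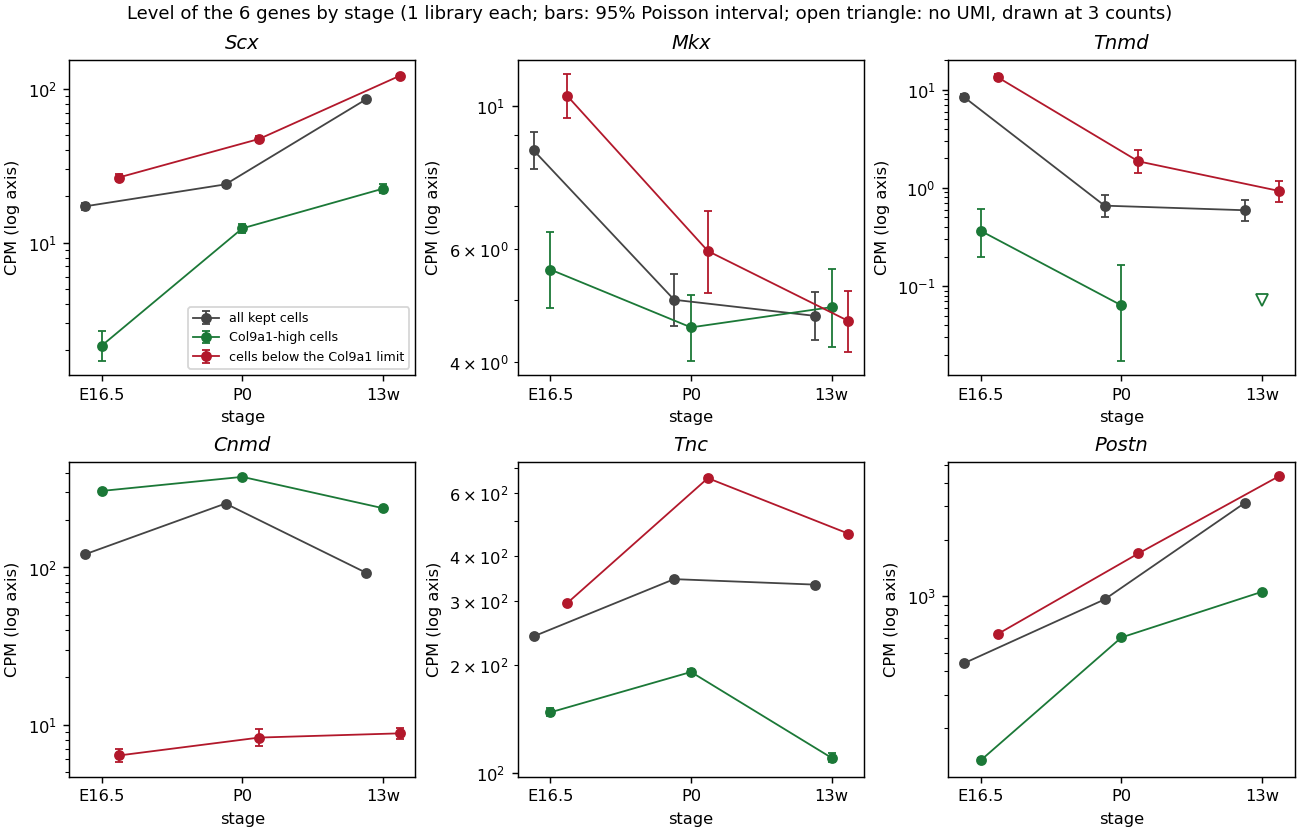
Level of each gene (CPM, log axis) at E16.5, P0 and 13w in all kept cells (grey), Col9a1-high cells (green) and cells below the limit (red), with 95% Poisson intervals from 1 library per stage. Scx and Postn are highest at 13w in all 3 groups of cells, Tnmd is highest at E16.5 (its 13w Col9a1-high value had no UMI and is drawn at the level of 3 counts), and only Cnmd lies higher in Col9a1-high cells at every stage.

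The Col9a1 split divided the panel. Cnmd lay almost wholly in Col9a1-high cells, which held 96.8%, 98.9% and 94.0% of its UMIs at E16.5, P0 and 13w. Its level there was 307, 377 and 238 CPM, against 6.36, 8.27 and 8.80 CPM in the rest, or 48.3-fold, 45.6-fold and 27.1-fold higher. Scx, Tnmd, Tnc and Postn lay on the opposite side of the split.

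Scx stood at 2.13 CPM (1.70 to 2.65) in Col9a1-high cells at E16.5, 12.4 at P0 and 22.5 in the 13w library. In the rest it stood at 26.6, 47.5 and 122 CPM. The rest was thus 12.5-fold, 3.83-fold and 5.44-fold higher. Both sides of the split had more Scx at later stages, and the contrast was widest at E16.5. After thinning, 0.706% of Col9a1-high cells held a Scx UMI at E16.5. That is near the background share given above for blood-marked cells of that library, so the size of the E16.5 contrast is uncertain.

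Tnmd, whose promoter window is printed beside that of Cnmd, lay on the same side as Scx, with 13.4, 1.87 and 0.932 CPM in the rest. In Col9a1-high cells it stood at 0.364 CPM at E16.5, and at 0.0636 at P0, from 4 UMIs. At 13w it had 0 UMIs in 1621 Col9a1-high cells, which allows a share of cells with a UMI of up to 0.185%. Against a floor of 3 counts over that group, the rest was at least 12.8-fold higher.

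Tnc stood at 148, 191 and 110 CPM in Col9a1-high cells and at 297, 658 and 462 CPM in the rest. The rest was higher by 2.01-fold, 3.44-fold and 4.18-fold. The E16.5 call stood at the 2-fold limit, and under TMM factors the log2 ratio of -1.01 became -0.69, which is no call. Postn stood at 135, 605 and 1056 CPM in Col9a1-high cells and at 631, 1686 and 4332 CPM in the rest, 4.67-fold, 2.79-fold and 4.10-fold higher.

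Mkx was the member that the split hardly divided. It stood at 5.57, 4.53 and 4.87 CPM in Col9a1-high cells and at 10.4, 5.95 and 4.63 CPM in the rest. At E16.5 the log2 ratio was -0.90 (-1.13 to -0.67) and at 13w 0.07 (-0.19 to 0.33), an interval that includes equal levels. Weighing cells equally in place of by their UMIs gave -1.25 at E16.5, which is a call.

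In the call counts, Col9a1-high cells at E16.5 had 1 of the 6 genes higher and 4 lower, against 8.82% and 24.9% of all measured genes. P0 also had 1 higher and 4 lower, against 10.7% and 21.2%. At 13w, where Tnmd was under 1 CPM in both groups, 1 of 5 was higher and 3 lower, against 3.83% and 19.1%. Here the scaling factors moved log2 ratios by 0.27 to 0.38 upward, and apart from Tnc at E16.5 no call over the 6 genes changed with them.

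**Figure D2:**
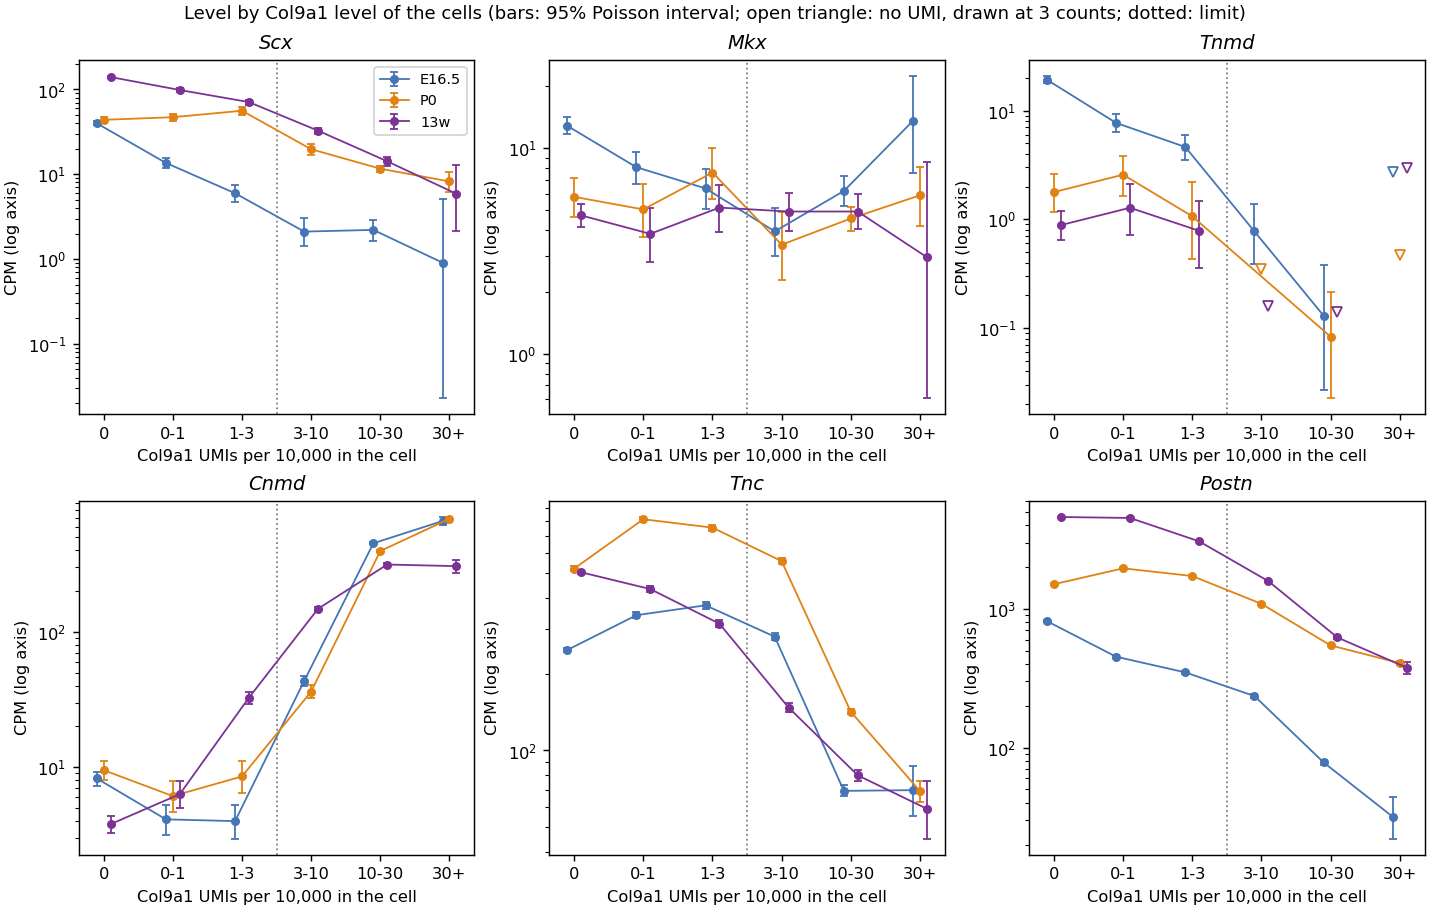
Level of each gene (CPM, log axis) by the Col9a1 level of the cells (UMIs per 10000) in each library, with 95% Poisson intervals, the limit of 3 as a dotted line, open triangles for bins with no UMI drawn at the level of 3 counts, and lines joining bins that hold a UMI. In every library Scx and Postn are lower, and Cnmd higher, in each bin above the limit than in each bin below it, while Tnc peaks from 1 to under 3 at E16.5, above 0 and under 1 at P0, and where Col9a1 is 0 in the adult library.

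Finer steps of Col9a1 gave the shape of these contrasts. At E16.5 Scx stood at 40.0 CPM in 2438 cells with no Col9a1 UMI, at 13.6 in cells above 0 and under 1 per 10000, at 5.97 from 1 to under 3, and at 2.11 from 3 to under 10. At P0 the level was 43.9, 47.1 and 56.2 CPM over the 3 bins below the limit and 19.8 in the first bin above it. At 13w it was 140, 98.6, 71.1 and 32.7 CPM over the same 4 bins. Scx was thus graded at E16.5 and 13w already below the limit, and at P0 it was not.

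Tnc was not highest where Col9a1 was 0 in the E16.5 and P0 libraries. At E16.5 it stood at 249 CPM with no Col9a1 UMI, 341 and 373 in the next bins, 281 from 3 to under 10 and 69.3 from 10 to under 30. At P0 these values were 520, 813, 754, 556 and 142 CPM. At 13w the first bin was the highest. Cnmd at E16.5 stayed at 8.24, 4.11 and 3.98 CPM below the limit, stood at 43.4 in the first bin above it and reached 452 from 10 to under 30. At 13w it was already 32.6 CPM from 1 to under 3 and 148 from 3 to under 10. Bins above 30 held 41 and 39 cells at E16.5 and 13w and are not read.

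The stage differences were taken again on each side of the split, where the share of Col9a1-high cells no longer enters. Within Col9a1-high cells, P0 had 2 of 5 measured genes higher than E16.5 (Scx and Postn) and 0 lower, against 7.71% and 7.80% of genes. The 13w library against P0 had 0 of 5 called in either direction, against 9.60% and 15.4%, and against E16.5 it had 2 higher (Scx and Postn) and 0 lower, against 12.5% and 21.0%. Scx there was 5.81-fold above E16.5 at P0 and 10.5-fold at 13w, but its E16.5 share of cells was near background, so these folds are uncertain. Postn there was 7.82-fold above E16.5 at 13w. Blood-marked cells, which should lack Postn, also held more of it at 13w than at E16.5, as given above. What part background had in the Postn difference was not tested. In Col9a1-high cells Cnmd differed by 1.23-fold between P0 and E16.5 and by 1.58-fold between P0 and 13w, under the 2-fold limit in both cases. Its all-cell difference at birth therefore went together with the 43.7% share of Col9a1-high cells, and what part each had was not tested.

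In cells below the limit, P0 against E16.5 had 2 of 6 higher (Tnc and Postn) and 1 lower (Tnmd), against 6.45% and 11.9%. There Tnc was 2.22-fold higher at birth, which the all-cell level did not show. The 13w library against P0 had 2 higher (Scx and Postn) and 1 lower (Tnmd, at the limit with a log2 ratio of -1.0), against 13.3% and 12.3%. Against E16.5 it had 2 higher (Scx and Postn) and 2 lower (Tnmd and Mkx), against 13.9% and 20.1%. Mkx was 2.24-fold lower at 13w there (1.96 to 2.56).

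Sox9 itself was nearly level in Col9a1-high cells, at 756, 569 and 757 CPM. In the rest it stood at 290 CPM at E16.5, 233 at P0 and 659 in the 13w library, so the adult cells below the Col9a1 limit were 2.82-fold above those at birth. The Col9a1-high side was 2.61-fold above the rest at E16.5 and 1.15-fold at 13w. Col2a1, a target of Sox9, was also higher in the adult cells below the limit, at 3189 CPM against 290 at birth. From E16.5 to P0 these cells had more Col2a1 (145 and 290 CPM) and less Sox9 (290 and 233 CPM). In Col9a1-high cells Col2a1 stood at 10618, 19050 and 42076 CPM in stage order, with Sox9 at 756, 569 and 757. Whether Sox9 had a part in the Col2a1 levels was not tested.

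Scx and Sox9 were found in the same cell in 564 cells at E16.5 (12.4%), 1037 at P0 (25.9%) and 3089 in the 13w library (38.5%). Sox9 was present in 75.1%, 87.7% and 85.9% of Scx-positive cells. Because both detections grow with depth, the share with both was set against the product of the separate shares. In stage order the ratio was 0.941 (0.870 to 1.017), 1.05 (0.992 to 1.10) and 1.08 (1.05 to 1.11). Within 10 bins of like depth it was 0.984, 1.01 and 1.03, and after thinning to 3000 UMIs it was 0.674 (0.547 to 0.821), 0.897 (0.765 to 1.04) and 0.971 (0.916 to 1.03). After thinning, the 2 genes were thus found together less often than the product at E16.5, beyond counting error. The 2 ways of allowing for depth differed there, since the ratio within bins of like depth, 0.984, was near 1. At P0 and 13w the thinned interval included 1. These intervals cover the count of cells with both genes and hold the product fixed. An interval that includes 1 is therefore not read as detection of the 2 genes independently of each other.

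Among cells with a Sox9 UMI, Scx was found in 15.5%, 30.9% and 48.2%, and among cells without one in 20.3%, 22.5% and 31.3%. After thinning these shares were 4.19%, 7.57% and 21.3% with Sox9 against 8.43%, 9.46% and 22.9% without. The full-depth order at P0 and 13w was therefore not kept at equal depth, and no order is read from it. In cells below the Col9a1 limit the thinned ratio was 0.784 at E16.5, 1.06 at P0 and 1.03 in the 13w library.

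**Figure D3:**
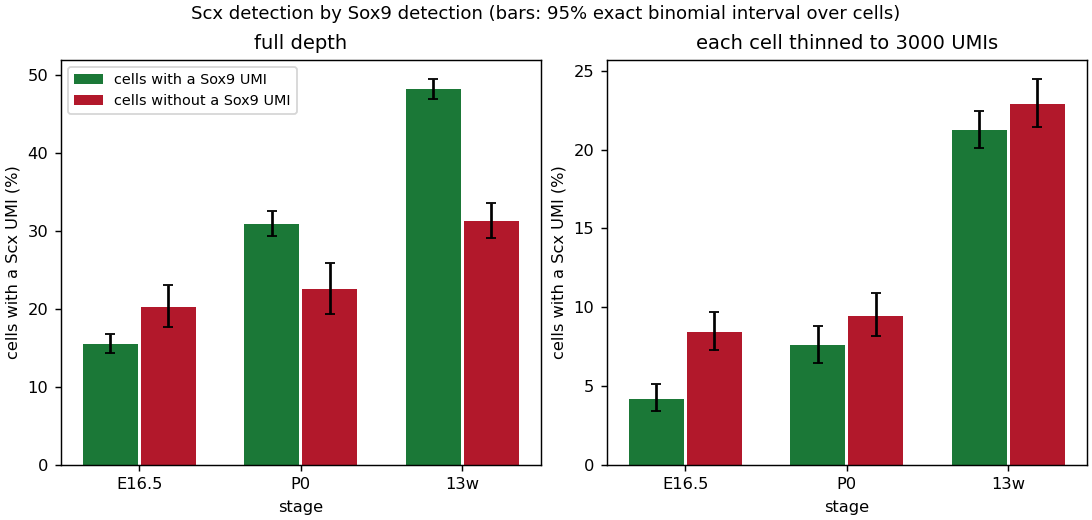
Share of cells with a Scx UMI (%) among cells with (green) and without (red) a Sox9 UMI in each library, at full depth and after thinning to 3000 UMIs per cell, with 95% exact binomial intervals over cells. Both shares are highest at 13w, and at equal depth the E16.5 cells without Sox9 lie above those with it (8.43% against 4.19%).

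Cells with both factors held more Col2a1 and Postn at 13w than at E16.5, and so did cells with either factor alone. At E16.5 the cells with both held Col2a1 at 2473 CPM, against 104 in the 187 cells with Scx and no Sox9 and 4874 in the 3076 with Sox9 and no Scx. Tnmd ran the other way, at 34.5 CPM with both, 174 with Scx alone and 0.578 with Sox9 alone. Postn stood at 840, 1147 and 350 CPM in these groups. At 13w the cells with both held Col2a1 at 12700 CPM and Postn at 4466, against 478 and 5173 in the 508 with Scx alone and 25431 and 1944 in the 3317 with Sox9 alone. In both libraries the summed level in cells with both factors thus lay between the others for Col2a1 and Postn. At P0 it did so too, with Col2a1 at 12016, 628 and 14477 CPM and Postn at 1293, 2104 and 763, in the same order. The shares of Col9a1-high cells ran the same way as Col2a1, at 9.22%, 1.07% and 30.5% at E16.5 and 14.0%, 0.984% and 34.1% at 13w, and their part in it was not tested. At E16.5 a minority carried the Col2a1 level of cells with both, since 93 of 564 held 5 or more UMIs and the top 1% of cells held 27.2% of them. These groups differ in depth, with medians of 15082, 10914 and 22235 UMIs at E16.5 and 12546, 7241 and 12437 at 13w.

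Other pairs were set against the product of their shares in the same way. The ratio cannot exceed the inverse of the larger share, so its size is not compared between pairs. After thinning, Scx and Mkx were found together 4.11 times as often as the product of their shares at E16.5, from 34 cells, against 1.62 at P0, from 10 cells, and 1.35 at 13w, from 34 cells. Scx and Tnmd gave 9.08 at E16.5, from 35 cells, with 4 and 5 cells at the later stages. Cnmd stood apart from Tnc, with ratios of 0.415, 0.466 and 0.418, and from Scx, with 0.436, 0.510 and 0.424. Tnc and Postn gave 1.15, 1.15 and 1.14.

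Tnmd at E16.5 sat in few cells. Of its 846 UMIs, 13 cells held 50% and 48 cells held 90%, with up to 66 UMIs in 1 cell. A set of 67 cells with at least 2 Tnmd UMIs was looked at after these values were seen, together with genes picked for it. In it Scx stood at 369 CPM, with a UMI in 51 of the 67 cells, Mkx at 41.4, Postn at 2564, Tnc at 156 and Sox9 at 152 CPM. The matrix proteins Col1a1 and Thbs4, a thrombospondin of tendon, stood at 4934 and 692 CPM. Against 695 cells with Scx and no Tnmd, at 113 CPM Scx, 18.8 Mkx and 2193 Col2a1, the set held 212 CPM Col2a1. Of its cells 1 was Col9a1-high, 3 carried mural markers and 1 muscle markers.

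The later libraries held 11 and 14 such cells. At P0, 4 of the 11 carried markers of mural cells, the contractile cells around vessels, and 16 of the 62 Tnmd UMIs of that library lay in its 79 mural-marked cells. At 13w none of the 14 carried markers of another lineage. They held Scx at 271 CPM, with a UMI in 10 cells, Thbs4 at 1003 CPM, with a UMI in all 14, and Cnmd at 0. The same cells held Col2a1 at 3110 CPM, with a UMI in 13, and Sox9 at 183, with a UMI in 8. Both levels were under those of the 3582 cells of this library with Scx and no Tnmd. Those held Col2a1 at 11816.5 CPM, with a UMI in 93.9%, and Sox9 at 723, with a UMI in 86.0%. The Postn level of the 14 cells, 1167 CPM, was under the 3137 of all 13w cells. In this library Thbs4 over all cells stood at 38.2 CPM.

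Cells below the Col9a1 limit and without markers of another lineage were also gated by single genes at 3 or more UMIs per 10000. At 13w Scx stood at 205 CPM in 182 cells gated on Prg4 (lubricin of the joint surface), 176 in 2883 gated on Dpt (a fibroblast matrix protein), 169 in 1307 gated on Cilp2 and 79.9 in 1943 with none of the gates. Postn stood at 847, 5795, 4543 and 3786 CPM in the same groups and Tnc at 260, 599, 461 and 433. Of these 4 groups the Prg4 gate was the high one for Scx and the low one for Postn and Tnc. Gates can share cells, and the Cilp2 gate also had Sox9 at 1110 CPM. In 487 cells with bone-type markers Scx stood at 82.2 and Postn at 3295 CPM.

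At E16.5 the 969 cells gated on Sfrp2, a secreted Wnt modulator of fibroblasts, held Scx at 84.6 CPM, Mkx at 22.8, Tnmd at 26.9 and Postn at 1066. Tnc there stood at 102 CPM, against 349 in 1045 cells gated on Crabp1 and 360 in 1423 with no gate. In those groups Scx stood at 22.0 and 13.8 CPM. The gate high for Scx was thus the low one for Tnc, but the genes also shared cells: Tnc was found in 66.3% of the 695 cells with Scx and no Tnmd, at 221 CPM, and in 71.9% of cells with neither, at 243 CPM. Over all cells Scx and Tnc had a correlation of -0.10 in the E16.5 library, against 0.21 for P0 and 0.30 for 13w. In 58 muscle-marked cells of E16.5, Scx stood at 57.8 CPM, from 50 UMIs, while Mkx had 0 UMIs.

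**Figure D4:**
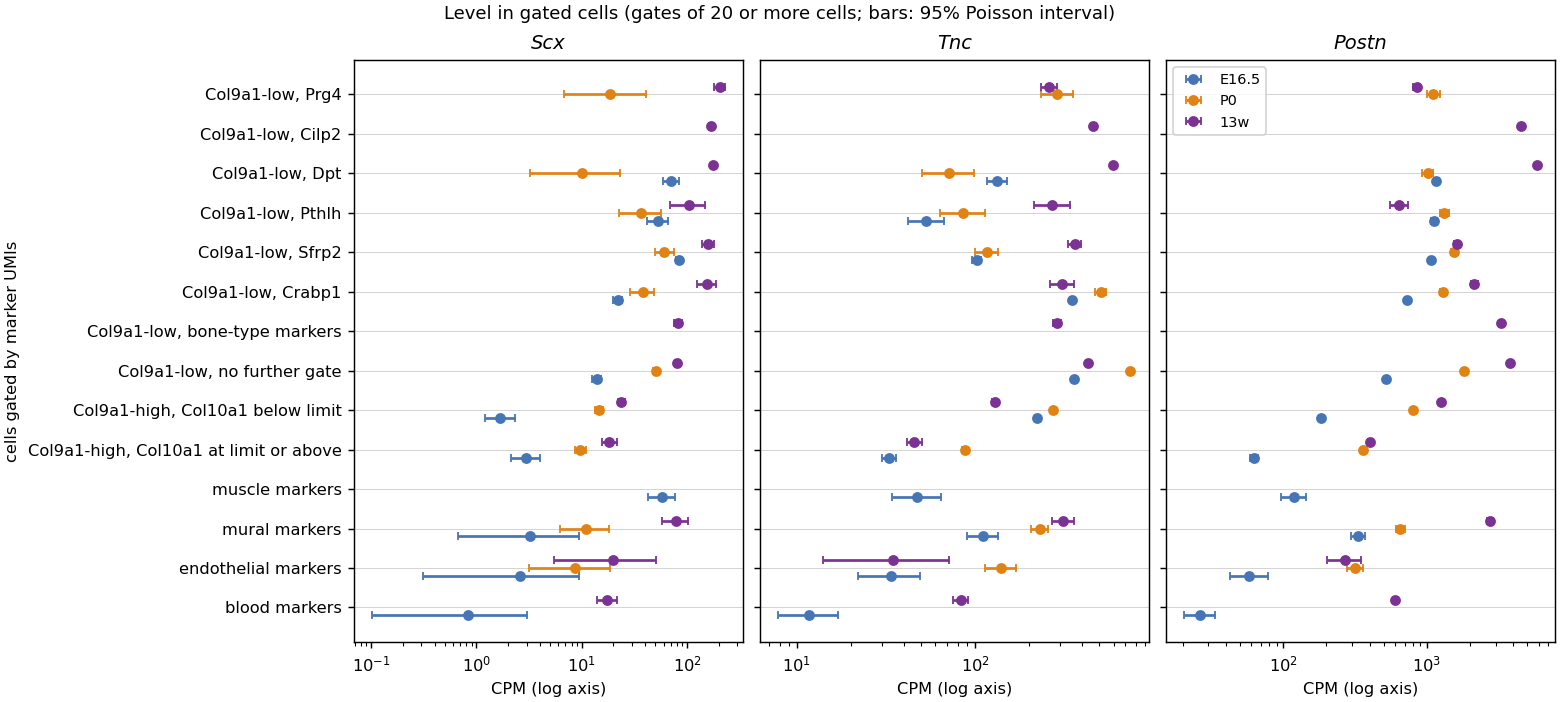
Level of Scx, Tnc and Postn (CPM, log axis) in cells gated by marker UMIs, in each library, with 95% Poisson intervals and gates of under 20 cells left out. At 13w the Prg4 gate is high for Scx (205 CPM) and low for Postn (847 CPM), and at E16.5 the Sfrp2 gate is high for Scx (84.6 CPM) and low for Tnc (102 CPM).

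Inside the Col9a1-high range, Col10a1, the collagen of hypertrophic cartilage, divided 3 of the genes in every library. Cnmd stood at 601 CPM with Col10a1 at its limit of 3 per 10000 or above and at 119 below it at E16.5, 559 and 226 at P0, and 414 and 186 at 13w. Tnc ran the other way, at 33.0 and 222, 88.1 and 274, and 45.6 and 129 CPM. Postn did so as well, at 62.6 and 182, 358 and 803, and 402 and 1245 CPM. Scx was low in both parts, at 2.96 and 1.69 CPM at E16.5, 9.66 and 14.5 at P0, and 18.4 and 23.8 at 13w.

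The genes most like each member were taken by the mean over the 3 libraries of Pearson's r over cells of log2(UMIs per 10000 + 1), among 11236 genes. The cells of a library share a preparation and differ in depth, so these values are descriptions. For Scx the first were Htra1 (0.36), Dkk3 (0.31), Postn (0.31), Aspn (0.31) and Col3a1 (0.29). For Postn they were Col3a1 (0.73), Htra1 (0.58), Ptn (0.58), Col1a1 (0.57) and Col1a2 (0.55). For Tnc they were Tnn (0.63), another tenascin, then Pdzrn4 (0.51), Col12a1 (0.49), Angptl2 (0.49) and Fgfr2 (0.48). For Cnmd they were the cartilage genes Matn3 (0.68), Snorc (0.64), Col9a3 (0.63), Col9a2 (0.63) and Col2a1 (0.63). Tnmd had Thbs4 (0.21), Meox2 (0.18), Scube2 (0.17), Ebf1 (0.17) and Scx (0.15). These means rest mostly on E16.5, since Scx had 0.37 there and 0.046 and 0.049 at P0 and 13w, and Scube2 0.38, 0.14 and 0.0066. For Mkx no gene passed a mean of 0.14, which is no finding in counts this sparse. Its values too were higher at E16.5, with Thbs2, the first, at 0.245, 0.105 and 0.060 in stage order. Scx was at 0.21 with Mkx at E16.5 and at 0.064 at P0. Tnc and Postn were at 0.19 with each other at E16.5 and at 0.60 in both later libraries.

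Other tendon genes were read as lists, chosen with earlier results of these data known. Their counts stand against the shares of all measured genes. P0 had 6.23% of these called higher than E16.5 and 13.7% lower, the 13w library had 12.1% higher than P0 and 11.7% lower, and against E16.5 it had 12.2% and 19.8%. Of 22 tendon matrix genes, 7 were called higher and 4 lower at P0 against E16.5, with a median log2 ratio of 0.77 against -0.17 over all measured genes. Fmod, a collagen-binding proteoglycan, was higher at 373 against 40.7 CPM and Comp, a thrombospondin of cartilage and tendon, at 991 against 241, while the fibril-associated collagen Col14a1 was lower at 9.62 against 89.5. At 13w against P0, 14 of 22 were higher and 0 lower, with a median of 1.5 against -0.10. Dcn, the small proteoglycan decorin, stood at 2535 against 234 CPM and Fmod at 3149 against 373. At 13w against E16.5, 17 were higher and 2 lower, with a median of 1.99 against -0.27. The matrix list was thus higher at each later stage in most called members, the side on which Scx and Postn also lay.

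Of 18 tendon regulators, 17 were measured for P0 against E16.5, with 4 higher and 0 lower and a median of 0.38, against -0.17 over all genes. They include Tgfb1, a ligand that induces Scx in other settings, at 99.5 against 22.2 CPM, Gdf5, a joint growth factor, at 8.78 against 1.86, and Smad3, which carries the TGF-beta signal, at 18.8 against 7.43. At 13w against P0, 1 of 16 was higher and 3 lower, with a median of 0.23 against -0.10, so that the calls were few, with the higher share under that of all genes. The higher one was Egr1, a tendon regulator that is also an immediate early gene, at 841 against 361 CPM. The 3 lower ones were Bmp4, Gdf5, at 3.39 against 8.78 CPM, and Eya1, at 4.67 against 9.51. At 13w against E16.5, 4 of 17 were higher and 1 lower (Bmp4), with a median of 0.62 against -0.27. All genes had 6.23% higher and 13.7% lower, 12.1% and 11.7%, and 12.2% and 19.8% in these 3 comparisons.

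Relatives of the 6 proteins and receptors of matrix proteins had 4 of 16 higher and 1 lower at P0 against E16.5 (median 0.44), 4 of 15 higher and 2 lower at 13w against P0 (0.59), and 8 of 16 higher and 3 lower at 13w against E16.5 (1.01). The medians over all genes were -0.17, -0.10 and -0.27. Shares of all genes called higher and lower were 6.23% and 13.7%, 12.1% and 11.7%, and 12.2% and 19.8%. The lower calls of this list were near or under these shares. Itm2a, a BRICHOS relative of Tnmd and Cnmd, stood at 957, 1215 and 157 CPM. Tnn, the tenascin nearest to Tnc in the ranking above, stood at 198, 488 and 1359 CPM. The list of 10 cartilage partners of Sox9 had 7 higher and 0 lower at P0 against E16.5 (median 1.27), 0 higher and 4 lower at 13w against P0 (-0.88), and 1 higher and 1 lower at 13w against E16.5 (0.02).

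Across the Col9a1 split all measured genes had more lower than higher calls, with 24.9% against 8.82% in the E16.5 library, 21.2% against 10.7% in that of P0 and 19.1% against 3.83% in that of 13w, and medians of -0.31, -0.20 and -0.37. The list counts are read against these, and some list medians lay near them, such as -0.24 for the tendon matrix list at P0 and -0.47 for the regulators at 13w. In Col9a1-high cells the tendon matrix list had 2 higher and 8 lower of 22 at E16.5, 2 and 9 at P0, and 1 and 7 at 13w. Thbs4 stood at 1.41 against 60.4 CPM at E16.5, while Comp was on the other side at 624 against 4.51. The regulators had 1 and 6 of 17 at E16.5, 3 and 7 at P0, and 1 and 5 at 13w, with Eya1, a transcriptional cofactor, at 4.34 against 20.0 CPM at P0. The relatives and receptors had 3 and 6 of 16, 3 and 7 of 16, and 2 and 6 of 15. The cartilage partners had 8, 9 and 7 of 10 higher and 0 lower. Their side was shared by Cnmd and by no other of the 6 genes.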

How the data were processed

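The authors deposited UMI counts without scaling, a matrix of genes by called barcodes for the 1 library of each stage. Per the file headers these came from Cell Ranger 6.1.2, on build GRCm39 per the submitters' processing notes. The files hold 0 further columns of per-sample values.

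From these counts, barcodes under 500 genes or over 10% mitochondrial UMIs were dropped, and UMIs were summed over all kept cells, Col9a1-high cells and the rest, then scaled to CPM of each sum. Ratios carry exact conditional binomial intervals, sums Poisson and shares Clopper-Pearson intervals, all at 95% and for counting error only. A call needs a ratio of 2, an interval leaving out 1 and 1 CPM in the higher group; the same rule was run on every gene of the table and tested on simulated data. With 1 library per stage no p-value was computed. Thinning drew 3000 UMIs per cell without replacement. A cell carried a marker set with UMIs of at least 2 of its genes summing to at least 3 per 10000; erythroid, glial and epithelial sets marked 1, 10 and 1 cells at E16.5, 0, 1 and 0 at P0, and 1, 0 and 1 at 13w. Blood markers were carried by 153, 19 and 396 cells, endothelial by 57, 39 and 28, mural by 49, 79 and 48, muscle by 58, 11 and 0, and bone-type by 21, 59 and 977. Scrublet, through scanpy 1.11.5, marked 5, 1 and 0 cells at its automatic threshold and was taken not to have worked. No doublets were removed, and an alternative leaves out the 181, 146 and 572 highest scores.

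The 6 members, Sox9 and Col9a1 are named throughout. Otherwise a gene is named where it is among the 5 most correlated with a member (genes with a UMI in at least 1% of cells of every library, without mitochondrial, ribosomal protein and predicted genes) or among the 3 called genes of a list with the largest ratios; the genes of the marker sets and single-gene gates (Col10a1, Prg4, Cilp2, Dpt, Pthlh, Sfrp2 and Crabp1) come from the list of cell type markers, and Col2a1 and the genes beside the Tnmd set were chosen after their values were seen. The members and lists were chosen with earlier results of these data known. Alternatives cover the level limit, TMM factors (edgeR 4.0.16), median-of-ratios factors, equal weight per cell, thinning, quality limits, doublets, other lineages, the Col9a1 limit and the detection limit.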

Additional observations from a re-analysis of the deposited data

Results flagged for a closer look

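Cnmd at 13w against E16.5 differed in sign across the Col9a1 split. Its log2 ratio was -0.36 in Col9a1-high cells (238 against 307 CPM) and 0.47 in the rest (8.80 against 6.36 CPM). Tnc at 13w against E16.5 did so as well, at -0.42 in Col9a1-high cells (110 against 148 CPM) and 0.64 in the rest (462 against 297 CPM). In each case the single 13w library lay below the single E16.5 library on 1 side of the split and above it on the other, none of the 4 ratios reached 2-fold, and the difference between the sides was not tested.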

How the results depend on the processing

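Each stage is 1 pooled library, so intervals cover counting error and neither animal nor library variation, and no setting leaves out a replicate. No paired analysis was possible because each stage has 1 library and the results come from no test. Sparse Mkx and Tnmd counts limit their ratios, and Tnmd at P0 and 13w is under 1 CPM. Tnmd across the Col9a1 split at 13w has no ratio to vary. The other settings kept most results. A call count was taken as kept where it was equal or close to the main one, and a co-detection ratio where it lay in the main interval. By this rule 159 were kept and 17 moved. A further 1, a co-detection ratio whose main interval left out 1, crossed to the other side of 1. Of the single-gene ratios, 420 kept their direction and side of the limit. Among single genes, 16 ratios fell short of a call that they had and 9 gained one, and 7 changed sign.

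Of the genes called between stages, a minimum of 10 CPM left 0 lower for P0 and for 13w against E16.5 in place of 1, since Tnmd is under that level. Equal weight per cell or thinning left 1 higher for P0 against E16.5 (Cnmd) in place of 2, Postn then being at 0.81 and 0.82, and gave 2 lower for 13w against E16.5 (Mkx and Tnmd). Thinning gave 2 lower for 13w against P0 (Tnmd and Cnmd). In Col9a1-high cells alone, 0 were lower in any of the 3 comparisons and 0 higher for 13w against P0. Below the limit alone, 2 were lower for 13w against E16.5. The ratio of Tnc at 13w against P0, -0.05, was 0.11 with TMM factors, 0.13 with median-of-ratios factors, 0.053 with equal weight and 0.029 with thinning. The cause was not tested. Col9a1-high cells alone gave -0.42 for Tnc at 13w against E16.5. Cells below the limit alone gave 0.089 for Cnmd at 13w against P0 and 0.47 against E16.5.

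Co-detection of Scx with Sox9, as observed over product, was 0.764 at E16.5 with at least 2 UMIs of each gene. Thinned it was 0.674, 0.897 and 0.971 at E16.5, P0 and 13w, the P0 and 13w ratios then being on the other side of 1 from their full-depth values. At 13w it was 1.03 within 10 bins of like depth and 1.04 without cells of other lineages.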
